A study of Artemisia argyi with 3 samples.

Results

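The unigenes described here encode the enzymes of the first steps of the MEP pathway in *Artemisia argyi*, a perennial herb of the Asteraceae whose leaves are burned in moxibustion. They were chosen as unigenes that the study names for these steps, a rule that uses no measured value. They comprise 2 unigenes of DXS (deoxyxylulose phosphate synthase), Unigene11038_All and CL12220.Contig1_All, and 2 of DXR (deoxyxylulose phosphate reductoisomerase), CL1159.Contig3_All and Unigene4542_All. Unigene11038 is the unigene from which ArDXS was cloned, and CL1159.Contig3 is the one from which ArDXR was cloned. The assignment of CL12220.Contig1 and Unigene4542 rests on the identifiers in the study's pathway scheme alone and was not checked against sequence, so it is less certain. The suffix _All, which every identifier of the expression table carries, is left out below. All 4 were found among the 88591 unigenes of the table. The study assembled more unigenes than the table holds, and all unigenes below means those of the table. The study assigns further unigenes to both enzymes, more of them to DXS than to DXR. Sums over these 4 are therefore not totals of DXS or DXR expression.

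Leaves, roots and stems each gave 1 library, for which the tissue of 5 plants was pooled. The values are FPKM, fragments corrected for unigene length and for how many fragments of the library were mapped, and the number of fragments behind each value is unknown. With 1 library per tissue there is no replicate, so every difference below compares single libraries and carries neither an error nor a p-value. Between 41139 and 44750 unigenes were above 1 FPKM in a library. The median of these was 2.93 FPKM in root, 3.67 in stem and 3.91 in leaf. The table pairs no unigene with a gene name, so the tissue labels were not checked against marker genes here. In bulk tissue, more cells that express a gene and more RNA per cell cannot be told apart.

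Plants make the C5 precursors of terpenoids, isopentenyl and dimethylallyl diphosphate, by the mevalonate pathway in the cytosol and by the MEP pathway in plastids. DXS joins pyruvate and glyceraldehyde phosphate into deoxyxylulose phosphate, and DXR rearranges and reduces that product to methylerythritol phosphate, after which the pathway is named. The MEP pathway supplies monoterpenes, carotenoids and the side chain of chlorophyll. Plant DXS is commonly encoded by a small gene family whose members differ in where they are expressed, and it is often described as a point of control of the pathway.

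Of the 4 unigenes, DXS Unigene11038 showed by far the widest spread over the tissues. It was at 71.76 FPKM in stem, 4.16 in leaf and 2.01 in root. Stem was thus 17.25 times leaf and 35.7 times root, and 92.1% of its FPKM summed over the libraries lay in stem. Leaf and root were close to each other by comparison, with leaf 2.07 times root. The other DXS unigene, CL12220.Contig1, had another order, with 2.05 FPKM in root, 1.21 in stem and 0.72 in leaf. It was highest in root, at 2.85 times leaf and 1.69 times stem.

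DXR CL1159.Contig3 was at 11.02 FPKM in leaf, 5.75 in stem and 4.83 in root. Leaf was highest, at 2.28 times root and 1.92 times stem, while stem and root differed only 1.19-fold. DXR Unigene4542 was low throughout, at 1.10 FPKM in stem, 0.81 in leaf and 0.42 in root, and was above 1 FPKM in stem alone. Its order was the order of DXS Unigene11038, stem above leaf above root, although its stem value was only 1.36 times leaf and 2.62 times root. Stem was the highest tissue for 2 of the 4 members, leaf for 1 and root for 1. Of the 66272 unigenes above 1 FPKM in any library, 35.5% were highest in stem, 37.6% in leaf and 26.9% in root.

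**Figure D1:**
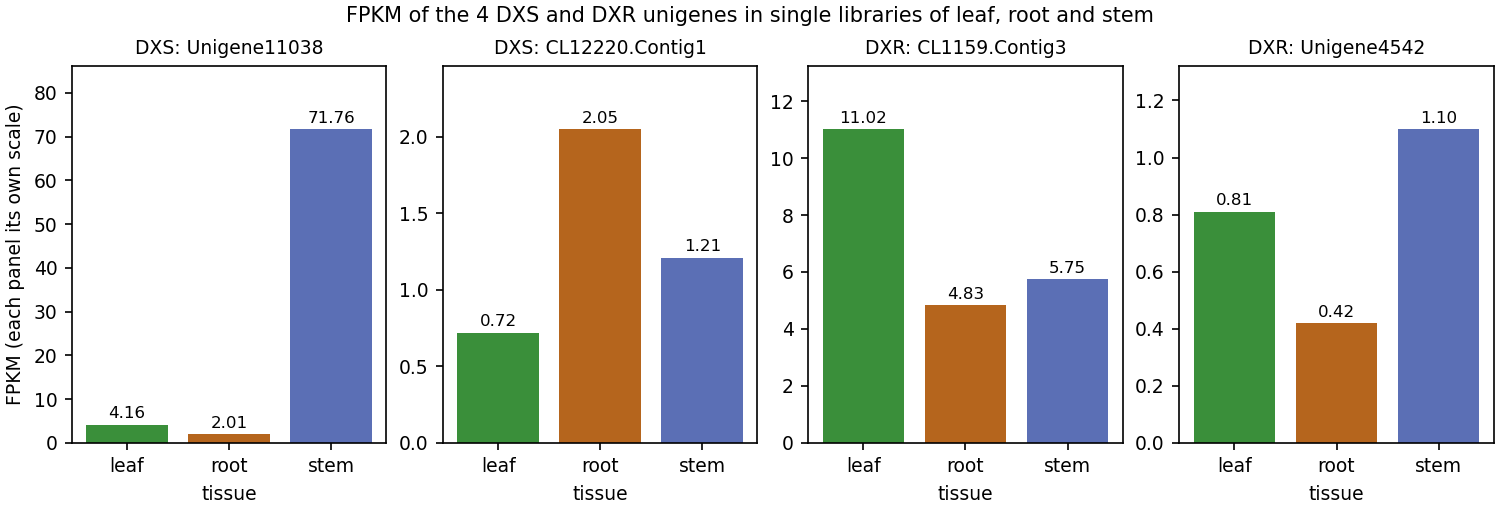
FPKM (y axis, linear from 0, each panel with its own scale) of the 4 unigenes in the single leaf, root and stem libraries (x axis); each bar is 1 library and its value is printed above it. The stem bar of Unigene11038, at 71.76 FPKM, stands far above its leaf and root bars, whereas CL12220.Contig1 is highest in root and CL1159.Contig3 in leaf.

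The members were then placed by rank within each library, rank 1 being the unigene with the highest FPKM. Ranks do not change when a whole library is rescaled. Unigene11038 stood at rank 1833 in stem, above 97.9% of all unigenes, against rank 19839 in leaf and 27349 in root. Its stem value was 19.6 times the median of the unigenes above 1 FPKM there, and 4.09% of those were higher. In leaf it lay at 1.06 times and in root at 0.69 times that median. The cloned DXS unigene was therefore an abundant transcript in stem and an average one in leaf.

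CL1159.Contig3 took rank 16933 in stem, 14624 in root and 10360 in leaf. By rank it was lowest in stem, although by FPKM it was lowest in root. It was the highest-ranked of the 4 members in leaf and in root, at 2.82 and 1.65 times the median of the unigenes above 1 FPKM. The weaker members ranked far lower in most libraries. CL12220.Contig1 took rank 26955 in root, 40978 in stem and 46169 in leaf, and in root it lay only just ahead of Unigene11038. Unigene4542 took rank 42857 in stem, 44370 in leaf and 55860 in root. The number of members above 1 FPKM was 4 in stem, 3 in root and 2 in leaf, beside 50.5%, 46.9% and 46.4% of all unigenes, and all 4 were above 0 in every library.

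**Figure D2:**
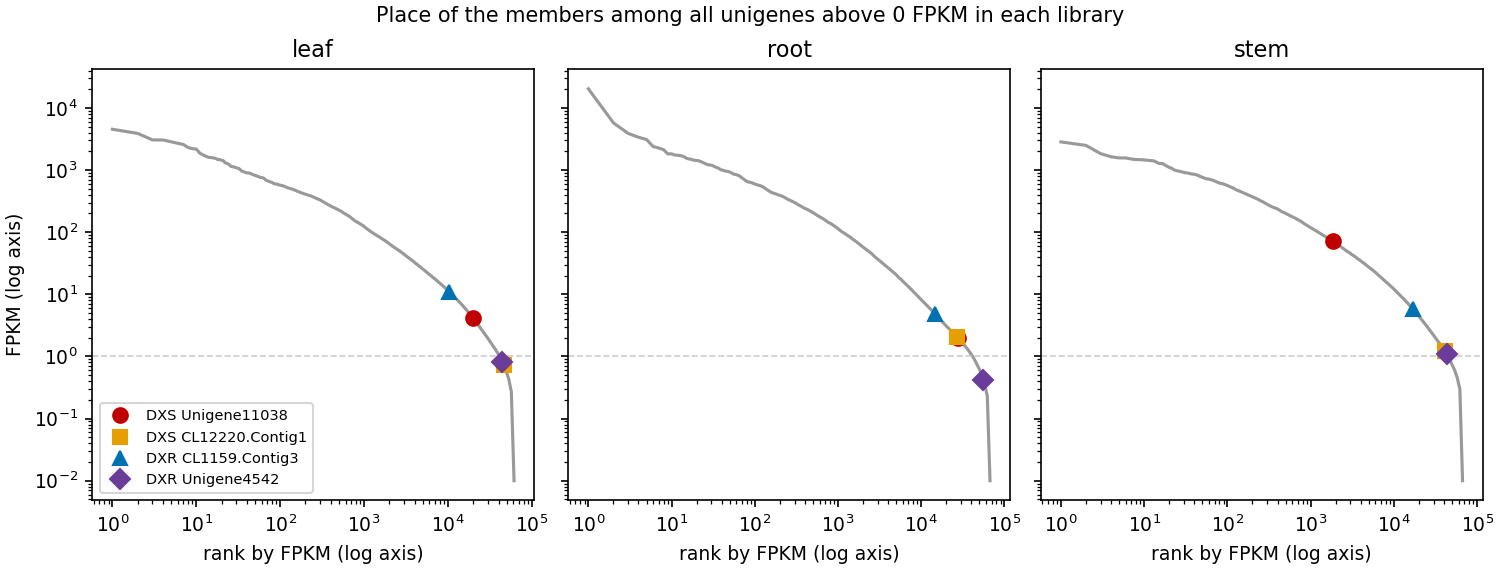
FPKM (y axis, log) against rank by FPKM (x axis, log) for all unigenes above 0 in each library (grey line), with the 4 members as symbols; the dashed line marks 1 FPKM. Unigene11038 lies at rank 1833 in stem, against 19839 in leaf and 27349 in root, and Unigene4542 lies below the dashed line in leaf and root.

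FPKM is scaled by length, so unigenes can be compared within a library. In leaf the DXS unigenes summed to 4.88 FPKM and the DXR unigenes to 11.83, a DXS to DXR ratio of 0.41. In root the sums were 4.06 and 5.25 FPKM, a ratio of 0.77. In stem they were 72.97 and 6.85 FPKM, a ratio of 10.7. For these members, the DXR sum thus exceeded the DXS sum in leaf and root, and the DXS sum exceeded the DXR sum in stem. With the cloned unigenes alone, ArDXS over ArDXR was 12.5 in stem, 0.42 in root and 0.38 in leaf, so the sides were the same. With the other contigs of the members' clusters added, the ratio was 5.80 in stem, 0.53 in root and 0.25 in leaf. Those added contigs were not themselves assigned to an enzyme here and were counted with the member of their cluster. The sides were again the same, but the ratio in stem was smaller. Further unigenes of both enzymes, more of them of DXS, are not in these sums.

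Between the DXS members the shares of the sum differed by tissue. Unigene11038 gave 85.2% of the DXS sum in leaf and 98.3% in stem. In root both unigenes contributed nearly equally, 49.5% from Unigene11038 and 50.5% from CL12220.Contig1. Between the DXR members the cloned CL1159.Contig3 led in every library, with 83.9% of the sum in stem, 92.0% in root and 93.2% in leaf.

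Comparisons between tissues were made on the scale of log2(FPKM + 1), which understates the change of unigenes with low values. The 3 comparisons share libraries and are not independent. Beside the deposited FPKM, libraries were rescaled to equal sums (TPM) or divided by size factors taken from the median ratio of the unigenes above 0 in all of them (median-ratio scaling). For leaf against root, the log2 ratios were 0.78 for Unigene11038, -0.83 for CL12220.Contig1, 1.04 for CL1159.Contig3 and 0.35 for Unigene4542. Only CL1159.Contig3 was past 2-fold, so 1 of 4 members passed that threshold upward in leaf, beside 20.2% of all unigenes, and 0 of 4 passed it downward, beside 18.0%. These shares of all unigenes were 22.3% and 21.9% with TPM, and 13.2% and 23.5% after median-ratio scaling. The median ratio of the 56551 unigenes above 1 FPKM in leaf or root was 0.35, and 29.6% of them had a higher ratio than CL1159.Contig3. Its excess in leaf was therefore within the common range. With TPM and with median-ratio scaling 0 of 4 members passed 2-fold upward in leaf and 1 of 4, CL12220.Contig1, passed it downward, while without a pseudocount Unigene11038 passed upward as well, at 1.05. The leaf excess depended on scaling, since division by median-ratio size factors lowers a leaf to root ratio taken without a pseudocount by 0.64. With the pseudocount of 1, the ratio of CL1159.Contig3 after this scaling was 0.49.

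For leaf against stem, the log2 ratios were -3.82 for Unigene11038, -0.36 for CL12220.Contig1, 0.83 for CL1159.Contig3 and -0.21 for Unigene4542. No member exceeded stem 2-fold in leaf, beside 12.3% of all unigenes, and 1 of 4, Unigene11038, lay 2-fold or more below it, beside 16.5%. Of the 54920 unigenes above 1 FPKM in leaf or stem, 1.06% had a ratio below that of Unigene11038. CL1159.Contig3 was the only member higher in leaf than in stem, and 23.9% of these unigenes had a higher ratio. Here median-ratio scaling shifts a ratio taken without a pseudocount by only -0.02. With the pseudocount of 1, the scaled ratios were -3.79 for Unigene11038 and 0.80 for CL1159.Contig3.

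For stem against root, the log2 ratios were 4.60 for Unigene11038, -0.46 for CL12220.Contig1, 0.21 for CL1159.Contig3 and 0.56 for Unigene4542. Again 1 of 4 members, Unigene11038, was at least 2-fold higher in stem, beside 19.8% of all unigenes, and 0 of 4 were at least 2-fold lower, beside 14.2%. Median-ratio scaling changed these shares to 12.3% and 19.4%. Only 163 of the 57701 unigenes above 1 FPKM in stem or root, or 0.28%, had a higher ratio than Unigene11038. After median-ratio scaling its ratio was 4.10. The same scaling turned CL1159.Contig3 from 0.21 to -0.31, so whether stem or root was the lower tissue for ArDXR was decided by the scaling. Without a pseudocount Unigene4542 also passed 2-fold, at 1.39.

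Counts of members past 2-fold were thus at or near what the share of all unigenes would give for 4 unigenes, and the stem value of Unigene11038 was the exception in size. Among the 24505 unigenes above 1 FPKM in all 3 libraries, 106 were at least 8-fold higher in stem than in both leaf and root, Unigene11038 being one of them. A total of 8 others matched or exceeded both its folds, 17.25 over leaf and 35.7 over root.

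**Figure D3:**
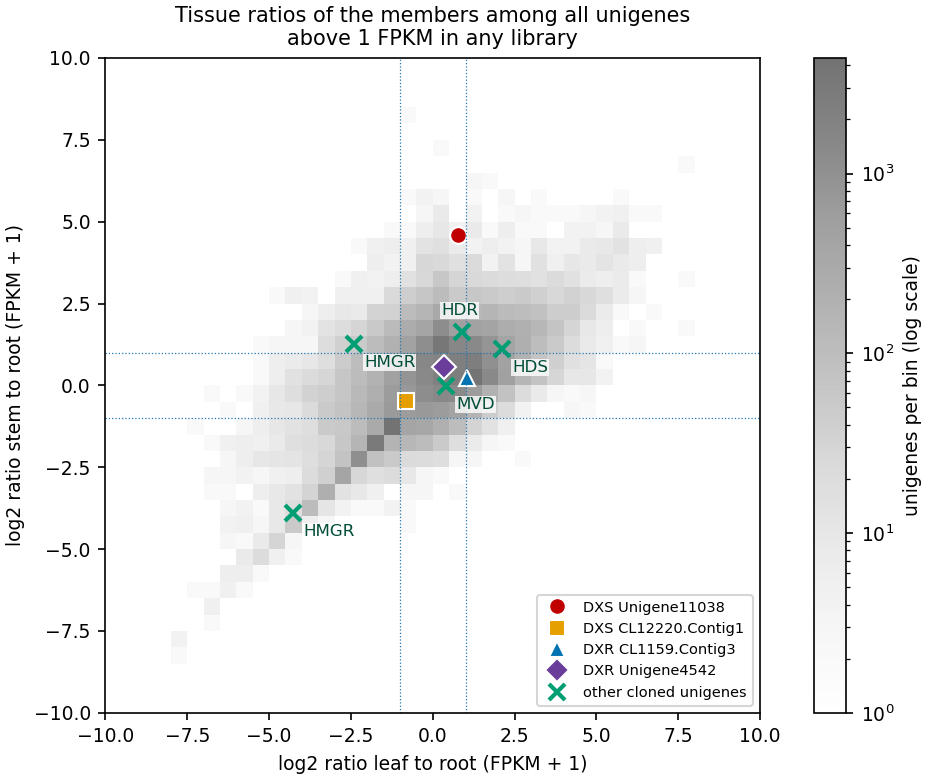
Log2 ratio of leaf to root (x axis) and of stem to root (y axis), both on the scale of FPKM + 1, for all unigenes above 1 FPKM in any library (grey bins, darker for more unigenes), the 4 members (symbols) and the 5 other cloned unigenes (crosses, with their enzymes); dotted lines mark 2-fold. Unigene11038, at 0.78 and 4.60, lies at the upper edge of the cloud, and the other 3 members lie in its dense centre.

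CL12220.Contig1 and CL1159.Contig3 are contigs of clusters, groups of similar assembled sequences, and the fragments that fit several contigs of a cluster were divided among them by the estimation. The values of single contigs are therefore less certain than the cluster sums. Cluster CL1159 has 3 contigs in the table. CL1159.Contig2 was at 9.26 FPKM in leaf, 4.94 in stem and 2.71 in root. CL1159.Contig1 was at 2.01, 1.17 and 1.15 FPKM in the same tissues. All 3 contigs were highest in leaf. In FPKM all 3 were lowest in root, but after median-ratio scaling CL1159.Contig3 and CL1159.Contig1 were lowest in stem. The member gave 48.5% of the cluster sum in stem, 55.6% in root and 49.4% in leaf. That sum was 22.29 FPKM in leaf, 11.86 in stem and 8.69 in root. For the sum the leaf to root ratio, 2.57-fold, was somewhat above the 2.28-fold of the member.

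Cluster CL12220 behaved differently. Its other contig, CL12220.Contig2, was at 2.14 FPKM in stem, 0.85 in leaf and 0.81 in root, and was highest in stem where the member was highest in root. The member gave 71.7% of the cluster sum in root but 36.1% in stem. The sum was 3.35 FPKM in stem, 2.86 in root and 1.57 in leaf, so that in FPKM stem exceeded root for the cluster and not for the member. After median-ratio scaling the sum was 3.79 in root and 2.89 in stem, and both were then highest in root. Unigene11038 and Unigene4542 are singletons, with no other contig of the same cluster.

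**Figure D4:**
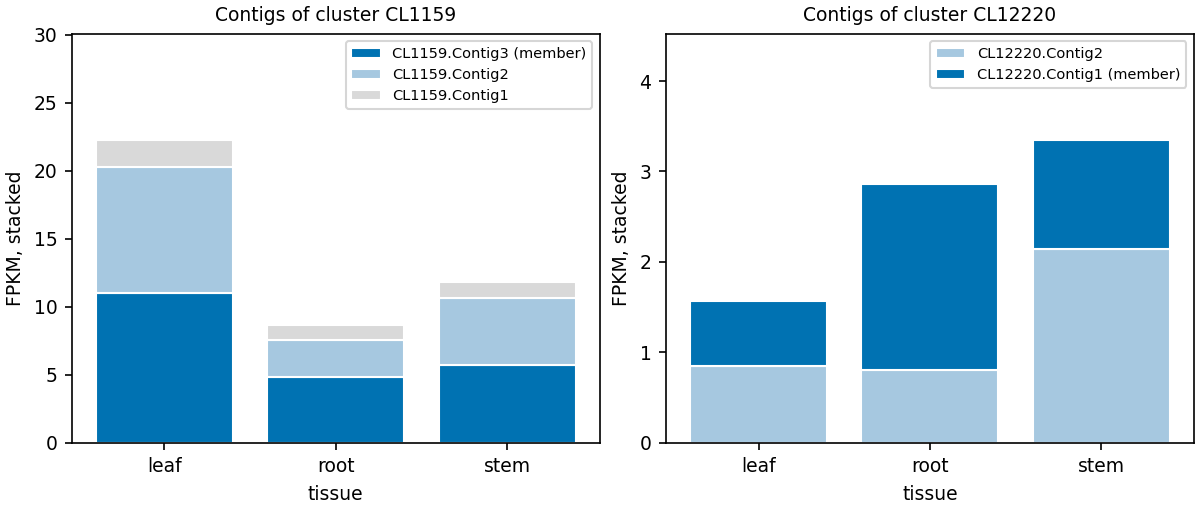
FPKM of the contigs of clusters CL1159 (left) and CL12220 (right), stacked by library (x axis), with the member in dark blue. The CL1159 contigs are all highest in leaf, where they sum to 22.29 FPKM, whereas in CL12220 the member is highest in root at 2.05 FPKM and the other contig in stem at 2.14 FPKM.

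The pathway was followed further with the 5 other unigenes that were cloned in the study. ArHDS (Unigene5791), the synthase that forms hydroxymethylbutenyl diphosphate late in the MEP pathway, was at 142.07 FPKM in leaf, 70.63 in stem and 32.37 in root. Like ArDXR it was highest in leaf, at a level 12.3 times ArDXR in stem, 6.70 times in root and 12.9 times in leaf. ArHDR (CL1787.Contig4), which releases both C5 diphosphates as the last step, was at 40.29 FPKM in stem, 23.41 in leaf and 12.23 in root, in the tissue order of ArDXS.

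The level of ArDXS relative to these late enzymes changed with the tissue. ArHDS exceeded ArDXS 34.2-fold in leaf and 16.1-fold in root, but in stem both were nearly equal, at 0.98-fold. ArHDR exceeded ArDXS 5.63-fold in leaf and 6.08-fold in root, and in stem ArDXS was 1.78 times ArHDR. ArDXR stayed below both late enzymes in all 3 libraries. ArHDR was at least 2.12 times ArDXR, the smallest ratio being that in leaf. ArDXR and ArHDR are each a single contig of a cluster, so these gaps partly depend on how fragments were divided among contigs. All contigs of CL1159 summed to 22.29 FPKM in leaf, close to the 23.41 FPKM of ArHDR there. That sets a cluster sum against a single contig, since the cluster of ArHDR was not summed.

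In the mevalonate pathway, ArHMGR1 (CL11002.Contig1), a reductase that makes mevalonate, was at 144.29 FPKM in stem, 59.50 in root and 10.33 in leaf. It shared the stem maximum with ArDXS. Its homologue ArHMGR2 (CL11002.Contig2) was at 174.90 FPKM in root, 10.72 in stem and 8.08 in leaf, and thus highest in root, as was DXS CL12220.Contig1. Both HMGR unigenes are contigs of cluster CL11002, so fragments that fit both were divided between them. Their single values and tissue shares are therefore less certain, and the sum of that cluster was not computed. ArMVD (Unigene7594), which forms isopentenyl diphosphate, varied least, with 11.80 FPKM in stem, 12 in root and 16.19 in leaf. Leaf exceeded root at least 2-fold for 1 of these 5 unigenes (ArHDS), and root exceeded leaf so for 2 (both HMGR), beside 20.2% and 18.0% of all unigenes. Stem exceeded root at least 2-fold for 3 of the 5 and root exceeded stem so for 1, beside the 19.8% and 14.2% of all unigenes given above. After median-ratio scaling the 3 became 1, ArHDR, beside 12.3% of all unigenes. Stem exceeded leaf at least 2-fold on the scale of FPKM + 1 for 1 of the 5, ArHMGR1, beside 16.5% of all unigenes. Leaf exceeded stem so for 0 of the 5, beside 12.3%. ArHDS, 2.01 times higher in leaf by FPKM, missed the threshold through the pseudocount, at a log2 ratio of 0.998. The share of the summed FPKM that lay in 1 tissue was 92.1% for ArDXS in stem and 90.3% for ArHMGR2 in root, and at most 67.4% for the other 4 cloned unigenes and ArDXR.

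**Figure D5:**
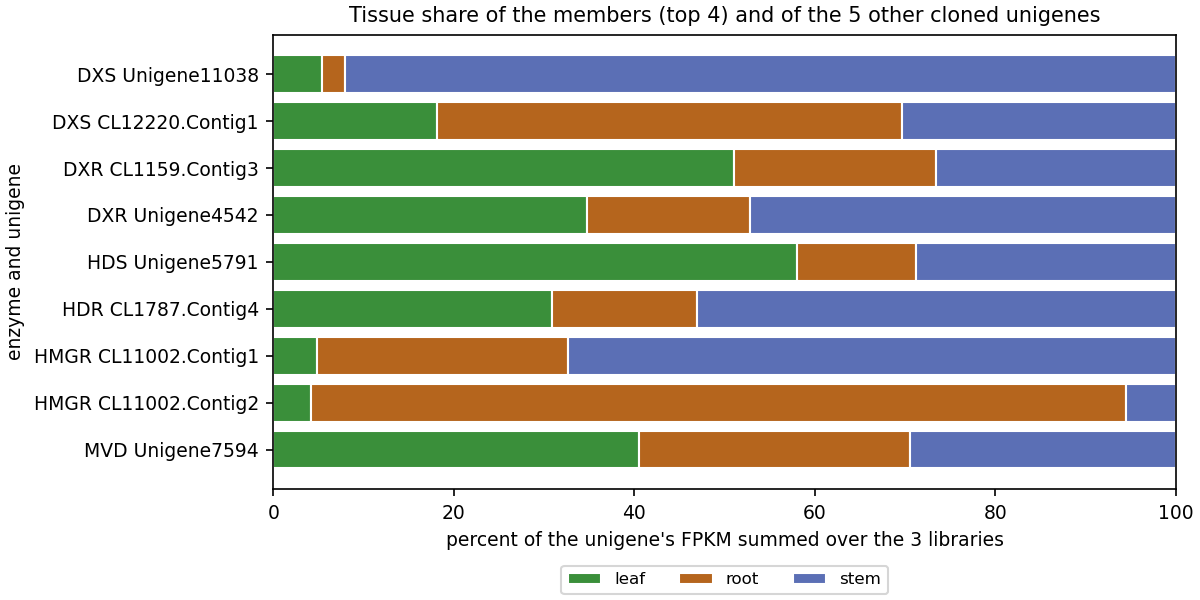
Percent of each unigene's FPKM, summed over the 3 libraries (x axis), that lay in leaf, root and stem, for the 4 members (top rows) and the 5 other cloned unigenes. Stem holds 92.1% for Unigene11038 and root 90.3% for CL11002.Contig2, while the other bars are divided more evenly.

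Unigenes with the most similar values were sought by the Euclidean distance of log2(FPKM + 1) over the 3 libraries. Unigene11038 had no other unigene within a distance of 0.5. The nearest were CL5959.Contig2, at 57.28 FPKM in stem, 4.80 in leaf and 3.06 in root and at a distance of 0.56, and CL8542.Contig3, at 88.84, 6.99 and 2.37 FPKM in the same tissues and a distance of 0.72. For the other members such likeness was common. Within 0.5 lay 651 unigenes for CL12220.Contig1, 533 for CL1159.Contig3 and 2549 for Unigene4542. The nearest to CL1159.Contig3 were CL4357.Contig2 at 0.03 and CL3701.Contig1 at 0.06, and the nearest to CL12220.Contig1 were CL5223.Contig3 at 0.03 and Unigene20331 at 0.07. The nearest to Unigene4542 were CL1233.Contig1 at 0.01 and Unigene3293 at 0.03. With 3 libraries, such distances describe like values only.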

How the data were processed

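The authors assembled the reads of all libraries de novo (Trinity 2.06), clustered the transcripts into unigenes (TGICL 2.06), aligned each library against them (Bowtie2 2.2.5) and quantified them (RSEM 1.2.12), per the study's methods. What the authors deposited is 1 table of FPKM values, rounded to 2 decimals. They keep no read counts, so the count-based test of the study was not applied, and the precision of single values is unknown. A few very abundant unigenes in a library lower the FPKM of all others there.

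Computed here were ranks, sums, folds and log2 ratios with a pseudocount of 1, and a threshold of 2-fold without a test. Alternatives were rescaling to a sum of 1000000 (TPM), median-ratio size factors, a pseudocount of 0.1 or none, the cloned unigenes alone, and whole clusters. The rule for the members uses no measured value, but it and the lists were set with earlier results of these data known. Unigenes named in the text are the members, the other contigs of their clusters, the 5 other cloned unigenes and the 2 nearest unigenes of each member. The ratio code was tested on simulated data. Python 3.11.15, numpy 2.4.6, pandas 2.3.3 and matplotlib 3.10.9 were used. Sequences were not analysed here.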

Additional observations from a re-analysis of the deposited data

How the results depend on the processing

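Values are log2 ratios of summed FPKM in the order leaf to root, leaf to stem and stem to root. The DXS pair had 0.22, -3.65 and 3.87. It had 0.12, -3.74 and 3.86 with TPM, -0.31, -3.63 and 3.32 with median-ratio scaling, 0.26, -3.88 and 4.13 with a pseudocount of 0.1, 0.27, -3.90 and 4.17 with none, 0.78, -3.82 and 4.60 with ArDXS alone, and 0.20, -3.50 and 3.70 with whole clusters. The DXR pair had 1.04, 0.71 and 0.33. It had 0.96, 0.70 and 0.26 with TPM, 0.47, 0.68 and -0.20 with median-ratio scaling, 1.16, 0.78 and 0.38 with a pseudocount of 0.1, 1.17, 0.79 and 0.38 with none, 1.04, 0.83 and 0.21 with ArDXR alone, and 1.25, 0.79 and 0.47 with whole clusters. Median-ratio scaling thus turned the sign of leaf to root for DXS and of stem to root for DXR. The number of members that exceeded root 2-fold in leaf, 1 as reported, was 0 with TPM and with median-ratio scaling and 2 with a pseudocount of 0.1 or none, and the number at least 2-fold lower was 1 instead of 0 under each of these 4 settings. The number higher in stem than in root was 2 instead of 1 with a pseudocount of 0.1 or none. Shares of all unigenes at these pseudocounts are not given here. The counts of lower members were added after seeing the data. With clusters summed to single entries, the median rank of the members was 13439.5 in stem, 18745 in root and 19532.5 in leaf among 63117 entries, against 28955.5, 27152 and 32104.5 among all unigenes. The DXS to DXR ratio, 10.7 in stem, 0.77 in root and 0.41 in leaf, was 12.5, 0.42 and 0.38 with the cloned unigenes alone and 5.80, 0.53 and 0.25 with whole clusters. Among unigenes above 1 FPKM in both tissues, without a pseudocount, 32.9% exceeded root 2-fold in leaf and 30.3% did so in stem. Why single settings moved these values was not tested. No paired analysis was possible because each tissue had 1 library, and no library could be left out for the same reason.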
